A study of Mus musculus with 10 samples.

Results

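The genes described here are 10 genes of prostaglandin and leukotriene synthesis and response, namely Pla2g4a, Ptgs1, Ptgs2, Ptges, Ptger2, Ptger4, Alox5, Alox5ap, Ltc4s and Alox15. They were chosen by name, not by their values, from the 21959 genes of the authors' table, and all 10 were found there. The table holds the mRNA sequencing of 10 tumors, 5 from mice of the exercise group (E), which could use a running wheel at will, and 5 from mice of the non-exercise group (NE), which were kept without intervention. All mice were female BALB/c animals that had received 4T1 cells under the abdominal skin, a mouse mammary carcinoma line taken to stand for triple-negative breast tumors, and the tumors were taken after 21 days. The mice were 5 to 6 weeks old when obtained. Since whole tumor pieces were sequenced, carcinoma cells and cells of the host were read together, and fewer cells of a type cannot be told apart from less RNA per cell. Depth was 15045613 to 20646763 counted reads per tumor in E and 18706032 to 23092251 in NE.

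Prostaglandins and leukotrienes are short-lived lipid signals made from arachidonic acid. A cytosolic phospholipase releases the fatty acid from membranes, the cyclooxygenases turn it into the precursor of all prostaglandins, and terminal synthases make each product, of which prostaglandin E2 is the one best known for inflammation, pain and the growth of many carcinomas. In the other branch, 5-lipoxygenase and its helper protein make leukotriene A4, which is turned into leukotriene B4, an attractant of neutrophils, or into the cysteinyl leukotrienes of mast cells and eosinophils, while 12/15-lipoxygenase is found in eosinophils and in some resident macrophages.

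The carcinoma and its stroma were first checked by their markers. Of 8 epithelial markers set for the 4T1 carcinoma, 3 passed the filter on low counts. The summed level of all 8 was 7.98 to 12.0 FPKM (fragments per kilobase of exon, scaled to the total of the library) in E and 10.6 to 18.8 FPKM in NE. Epcam reached at most 1.41 FPKM and Krt8 0.618 FPKM, and Krt8 and Cldn3 were at 0 in 1 and 7 of the 10 tumors. Cdh1 was at 1.42 to 4.44 FPKM and Krt19 at 4.59 to 12.6 FPKM. Thus most of the defining epithelial markers, but not Cdh1 and Krt19, were low or absent. The 10 macrophage or monocyte markers, all of which passed the filter, summed to 738 to 1309 FPKM in E and 404 to 1146 FPKM in NE. The levels below are those of this mixed tissue.

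Among the 10 genes, Ptgs1, Ptgs2 and Ptges, which lead to prostaglandin E2, were above Alox5, Alox5ap and Ltc4s of the leukotriene branch in mean level. So was Pla2g4a, which releases arachidonic acid for both branches. This holds for the set only, since Lta4h and Mgst3, listed under leukotriene synthesis outside it, had means of 22.3 and 24.4 FPKM. Ptges was the highest of the 10 genes, at 32.8 ± 5.47 FPKM (SD, n = 10), followed by Ptgs1 (19.8 ± 2.96), Pla2g4a (10.5 ± 1.41), Ptgs2 (10.3 ± 4.09), Alox5ap (3.52 ± 0.990), Alox15 (2.15 ± 1.77), Alox5 (1.62 ± 0.518), Ptger4 (1.54 ± 0.415), Ptger2 (0.478 ± 0.180) and Ltc4s (0.158 ± 0.139). Ptges was higher than Ptgs1, and Ptgs1 higher than Pla2g4a, in each of the 10 tumors. Neighbors in this order that did not differ beyond their spread were Pla2g4a and Ptgs2, with a mean difference of 0.145 FPKM against an SD of 3.87, Alox15 and Alox5, with 0.532 against 1.40, and Alox5 and Ptger4, with 0.0776 against 0.528. Alox5ap was higher than Alox15 in 8 of the 10 tumors.

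**Figure D1:**
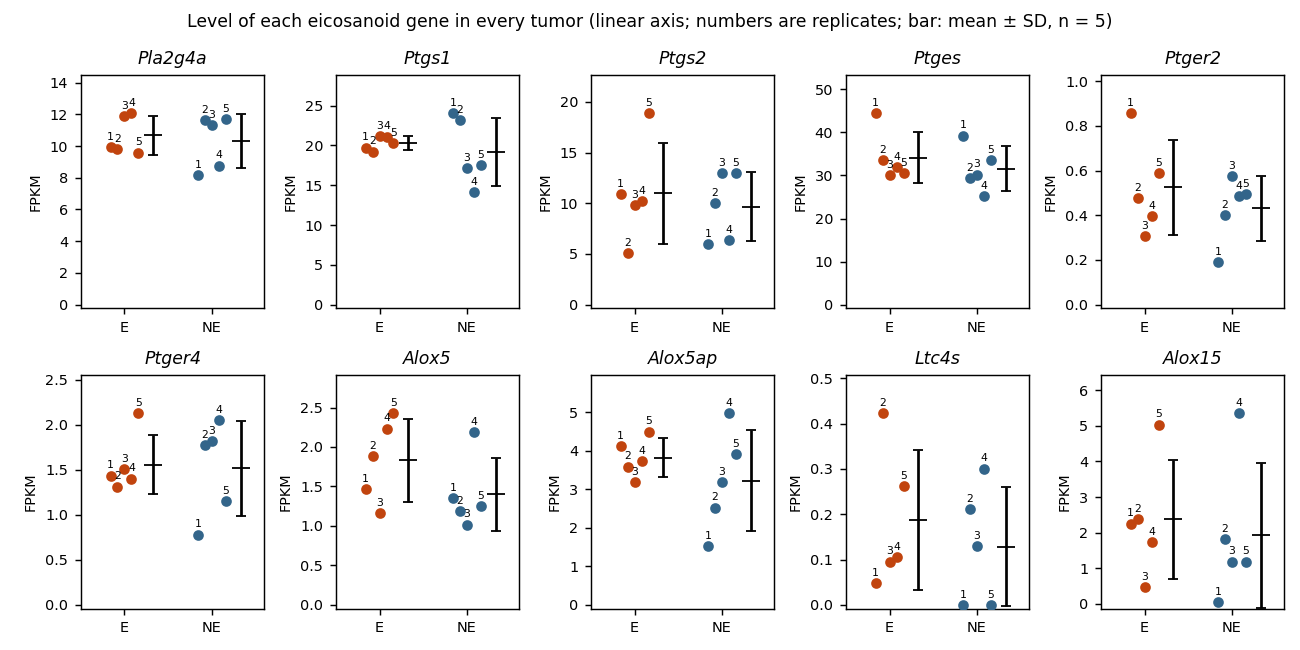
FPKM (linear axis) of each of the 10 genes in the 5 tumors of E (orange) and the 5 tumors of NE (blue), with the replicate number above each point and the mean ± SD (n = 5) beside each group. The groups overlap in all 10 panels, and Alox15 runs from 0.0529 FPKM in non-exercise replicate 1 to 5.36 FPKM in non-exercise replicate 4.

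The comparison of E with NE asked whether voluntary running changed these genes in the tumor. Of the 10 genes, 9 passed the filter on low counts and Ltc4s did not. None of the 9 met the call rule of edgeR's quasi-likelihood test, a 2-fold difference in either direction at an FDR no higher than 0.05, which 0.0% of the 13517 genes tested met. Likewise 0 of the 9 had an unadjusted edgeR p of 0.05 or less, against 4.86% of all genes tested, of which 2.57% were higher and 2.29% lower in E. By DESeq2 and by limma-trend 0 of the 9 met either threshold as well. The groups did not overlap in 0 of the 9 genes (0.725% of all genes tested). The log2 fold changes, with positive values for a higher level in E, ran from -0.0014 (Ptger4) to 0.34 (Alox5), with a median of 0.15 against -0.014 over all genes tested. A value above 0 was found for 8 of the 9 genes, where 46.0% of all genes tested had one. With 1 tumor left out this count ran from 6 to 9. It was 6 without exercise replicate 5 and also 6 without non-exercise replicate 1, and the median was then 0.058 and 0.030. By DESeq2, without TMM and by limma-trend it was 9, where 46.1%, 55.0% and 56.5% of all genes tested had a value above 0.

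The 95% intervals give the range of differences that fit these tumors. For Pla2g4a, Ptgs1 and Ptges they were narrow, from 0.837 to 1.23 times, from 0.859 to 1.26 times and from 0.873 to 1.29 times the level of NE, so that a 2-fold difference lies outside them. For Ptgs2 the interval was 0.667 to 1.85 times, for Ptger2 0.700 to 2.01 times, for Alox5 0.850 to 1.90 times and for Alox5ap 0.740 to 1.78 times. For Ptger4 it ran from -0.58 to 0.58 on the log2 scale. For Alox15 it was 0.320 to 4.33 times, the widest of the 9.

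**Figure D2:**
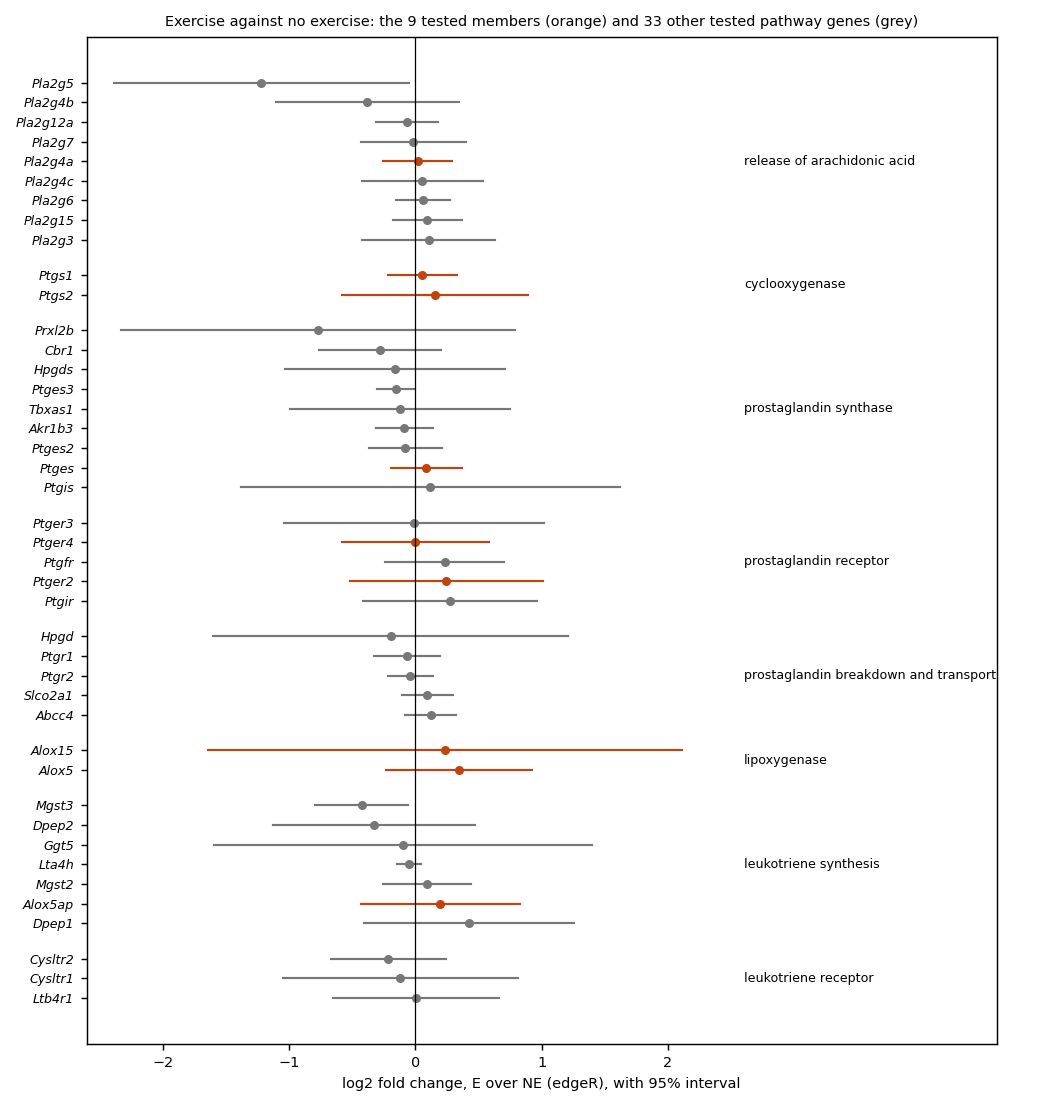
log2 fold change of E over NE (edgeR) with its 95% interval for the 9 tested genes of the set (orange) and 33 other tested genes of the pathway (grey), grouped by role. All 9 orange intervals include 0, and 3 grey ones, those of Mgst3, Pla2g5 and Ptges3, lie below 0 although their FDR is 0.897.

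Arachidonic acid is set free by cytosolic phospholipase A2, the product of Pla2g4a (ENSMUSG00000056220, GRCm38 chromosome 1, 149829618 to 149961290, reverse strand, 18 exons in its principal transcript). Its FPKM was 9.95, 9.82, 11.9, 12.1 and 9.59 in E replicates 1 to 5 and 8.18, 11.6, 11.3, 8.77 and 11.7 in NE replicates 1 to 5. The groups overlapped over most of their range, and the highest tumor had 1.48 times the level of the lowest. The log2 fold change was 0.018 (standard error 0.12, edgeR FDR 0.988). Pla2g4a lies next to Ptgs2 in the genome, with 138740 bp and no other protein-coding gene between them. Across the 10 tumors the levels of these neighbors had r = 0.460 (permutation p = 0.179, adjusted 0.429, rho = 0.285, permutation p = 0.427, adjusted 0.807), and r = 0.818 without exercise replicates 2 and 5, the tumors with the lowest and the highest Ptgs2.

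Both cyclooxygenases were expressed. Ptgs1 (ENSMUSG00000047250, GRCm38 chromosome 2, 36230426 to 36252272, forward strand, 11 exons) encodes COX-1, the form that most tissues and platelets make all the time, and Ptgs2 (ENSMUSG00000032487, GRCm38 chromosome 1, 150100031 to 150108227, forward strand, 10 exons) encodes COX-2, the form induced by cytokines and growth factors. The windows around their annotated starts are shown so that the inducible gene can be set beside the constant one, together with that of Ptges, the next step toward prostaglandin E2. The sequences are those of RefSeq for GRCm38.p6, from 250 bases before to 50 bases after the start, at chr1:150099781-150100080 for Ptgs2 and chr2:36230176-36230475 for Ptgs1 (forward strand both) and at chr2:30903248-30903547 for Ptges (reverse strand). The start used for Ptges lies inside the GENCODE span of that gene given below, whose upstream end is at 30929863. They are written 5′ to 3′ along the strand of the gene, with capitals for matches to any of 4 motifs searched on both strands, the letters TATAAA of the box bound by TBP, the letters TGACG from the cyclic AMP response element, the C/EBP palindrome TTGCGCAA and the GC box GGGCGG.
Ptgs2: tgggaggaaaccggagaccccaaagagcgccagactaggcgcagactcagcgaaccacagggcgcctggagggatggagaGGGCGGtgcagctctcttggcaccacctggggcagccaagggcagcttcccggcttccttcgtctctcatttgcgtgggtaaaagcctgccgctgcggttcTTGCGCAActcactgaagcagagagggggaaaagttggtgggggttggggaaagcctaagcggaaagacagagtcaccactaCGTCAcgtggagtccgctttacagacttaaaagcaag
Ptgs1: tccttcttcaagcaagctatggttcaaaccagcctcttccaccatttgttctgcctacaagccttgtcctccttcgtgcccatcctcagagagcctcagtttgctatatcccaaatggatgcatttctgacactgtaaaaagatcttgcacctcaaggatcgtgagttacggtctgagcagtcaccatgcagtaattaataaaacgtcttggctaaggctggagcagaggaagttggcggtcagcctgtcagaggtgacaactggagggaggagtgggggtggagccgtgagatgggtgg
Ptges: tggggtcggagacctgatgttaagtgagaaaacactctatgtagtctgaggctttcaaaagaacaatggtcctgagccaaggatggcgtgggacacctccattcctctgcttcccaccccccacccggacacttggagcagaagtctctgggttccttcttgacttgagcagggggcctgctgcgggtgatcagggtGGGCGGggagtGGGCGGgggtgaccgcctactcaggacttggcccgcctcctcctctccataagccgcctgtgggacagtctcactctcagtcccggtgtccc
The window of Ptgs2 held TTGCGCAA, 69 bases before the start, which 0.183% of all 32851 windows hold, together with 1 GC box (35.7% of all windows) and 1 CGTCA, which is TGACG read on the other strand (20.8%). The window of Ptgs1 held none of the 4 motifs and that of Ptges held 2 GC boxes. TATAAA was in none of the 3 windows and in 13.6% of all. Windows were given for 8 of the 10 genes. These are matches of letters and not sites shown to be used.

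The FPKM of Ptgs1 was 19.7, 19.2, 21.2, 21.1 and 20.3 in E replicates 1 to 5 and 24.1, 23.2, 17.1, 14.1 and 17.6 in NE replicates 1 to 5. The 5 tumors of E lay close together, inside the range of NE, with an SD of 0.864 against 4.27 FPKM, a difference in scatter that was not tested. Between the groups, the log2 fold change was 0.055 (standard error 0.12, edgeR FDR 0.953).

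The FPKM of Ptgs2 was 10.9, 5.12, 9.84, 10.3 and 18.9 in E replicates 1 to 5 and 5.98, 10.01, 13.0, 6.40 and 13.0 in NE replicates 1 to 5. Exercise replicate 5 was the highest tumor and exercise replicate 2 the lowest, 3.70 times apart, so that both ends of the range were in the same group. The log2 fold change was 0.15 (standard error 0.33, edgeR FDR 0.951), and it was -0.12 without exercise replicate 5, which also had the highest summed level of the neutrophil markers (342 FPKM against 9.66 to 23.1 in the rest of E and 8.38 to 45.8 in NE) and of the fibroblast markers (1822 FPKM against 264 to 606 in the rest of E). Of the neutrophil sum in exercise replicate 5, S100a8 and S100a9 gave 101 and 189 FPKM. Csf3r, Cxcr2, Retnlg and Mmp8 were also highest in this tumor, but Ngp, Camp and Ltf were highest in non-exercise replicate 4 and Ly6g in non-exercise replicate 3. The part of neutrophils and fibroblasts in the Ptgs2 level was not tested. Across the 10 tumors, the SD of log2(CPM + 1) was 0.56 for Ptgs2, larger than that of 97.5% of the 2620 tested genes within 0.5 of its mean level, and 0.20 for Ptgs1, larger than that of 78.9% of the 2385 genes near its level. The level of Ptgs2 was 0.248 to 0.931 times that of Ptgs1, a ratio of FPKM with a median of 0.486 in E and 0.454 in NE, so that COX-1 mRNA was the more abundant in all 10 tumors.

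Ptges (ENSMUSG00000050737, GRCm38 chromosome 2, 30889471 to 30929863, reverse strand, 3 exons) encodes microsomal prostaglandin E synthase-1, the inducible enzyme that completes prostaglandin E2. Its FPKM was 44.5, 33.6, 30.0, 31.9 and 30.6 in E replicates 1 to 5 and 39.3, 29.3, 30.2, 25.3 and 33.6 in NE replicates 1 to 5. Replicate 1 was the highest tumor of each group, and the other tumors overlapped. For Ptges the log2 fold change was 0.086 (standard error 0.13, edgeR FDR 0.935), and it was -0.023 without exercise replicate 1. Ptges was 1.26 to 2.26 times the level of Ptgs1.

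Of the receptors for prostaglandin E2, Ptger4, which encodes EP4, was above Ptger2, which encodes EP2, in all 10 tumors, by 1.67 to 4.90 times on the FPKM scale. Both receptors raise cyclic AMP. Ptger4 (ENSMUSG00000039942, GRCm38 chromosome 15, 5206661 to 5244187, reverse strand) was at 1.31 to 2.13 FPKM in E and 0.782 to 2.05 FPKM in NE. Its log2 fold change of -0.0014 (standard error 0.26, edgeR FDR 0.9996) was above 0 in 12 of 16 other settings, so that it has no stable sign. Ptger2 (ENSMUSG00000037759, GRCm38 chromosome 14, 44988195 to 45003820, forward strand) was at 0.308 to 0.858 FPKM in E and 0.192 to 0.576 FPKM in NE, on 23 to 92 reads, with a log2 fold change of 0.25 (standard error 0.34, edgeR FDR 0.933) that was 0.0040 without exercise replicate 1. Of the 50-base stretches of the transcripts of Ptger4, 14.4% also occur in transcripts of Ttc33 or of the pseudogene Gm15937, both on the opposite strand. Of those of Ptger2, 3.89% occur in transcripts from the opposite strand. Since the strand of the counts is not given, whether reads were shared could not be checked.

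In the leukotriene branch, the 5-lipoxygenase genes were expressed and the gene of leukotriene C4 synthase was close to its limit of detection. Alox5 (ENSMUSG00000025701, GRCm38 chromosome 6, 116410077 to 116461178, reverse strand, 14 exons) encodes 5-lipoxygenase. Its FPKM was 1.46, 1.88, 1.16, 2.23 and 2.43 in E replicates 1 to 5 and 1.35, 1.18, 1.02, 2.19 and 1.25 in NE replicates 1 to 5. Of NE, 4 tumors lay at 1.35 FPKM or less, as did 1 tumor of E, while non-exercise replicate 4 lay among the high tumors of E. The log2 fold change was the largest of the 9, 0.34 (standard error 0.26, unadjusted p 0.216 and FDR 0.897 by edgeR), and it was 0.59 without non-exercise replicate 4 (edgeR FDR 0.877). Over the 9 genes, 1 had an unadjusted edgeR p of 0.05 or less in this omission, the only case among the 10 single omissions. The count does not identify the gene. In the same omission 638 of all 13562 genes tested had such a p. Without exercise replicate 5, the tumor with the highest Alox5 level and the highest summed neutrophil markers, the log2 fold change of Alox5 was 0.23. Non-exercise replicate 4 had a summed level of 10697 FPKM over the 12 skeletal muscle markers, against 5.28 to 713 FPKM in the rest of NE and 133 to 1733 FPKM in E. Whether this tissue bears on the Alox5 level of non-exercise replicate 4 was not tested.

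Alox5ap (ENSMUSG00000060063, GRCm38 chromosome 5, 149264767 to 149288153, forward strand, 5 exons) encodes FLAP, the membrane protein that hands arachidonic acid to 5-lipoxygenase. Its FPKM was 4.13, 3.59, 3.18, 3.72 and 4.49 in E replicates 1 to 5 and 1.52, 2.52, 3.19, 4.97 and 3.92 in NE replicates 1 to 5. NE held both the lowest and the highest tumor, and E lay between them. The log2 fold change was 0.20 (standard error 0.29, edgeR FDR 0.933), and it was 0.44 without non-exercise replicate 4 and 0.026 without non-exercise replicate 1, the tumor with the lowest summed macrophage or monocyte (404 FPKM) and mast cell (14.9 FPKM) markers. Of the 50-base stretches of its transcripts, 6.80% also occur in the antisense gene Gm19719.

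Ltc4s (ENSMUSG00000020377, GRCm38 chromosome 11, 50236461 to 50238616, reverse strand, 5 exons) encodes the enzyme that joins leukotriene A4 to glutathione. It had 1, 8, 2, 2 and 4 reads in E replicates 1 to 5 and 0, 4, 3, 7 and 0 reads in NE replicates 1 to 5, 17 reads in E and 14 in NE together. At 0 reads, non-exercise replicates 1 and 5 allow up to 0.128 and 0.138 FPKM, the value of 3 reads there, a limit that covers the counting error only. A difference between the groups was not detectable at this depth. Of the stretches of its transcripts, 15.2% also occur in the antisense gene Gm26542. Lta4h, which encodes the enzyme of the leukotriene B4 branch and is named here for this contrast after its values were seen, stood at 20.7 to 23.4 FPKM in the 10 tumors, the most even level of the pathway genes shown, with a log2 fold change of -0.050 (standard error 0.042, edgeR FDR 0.897).

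Alox15 (ENSMUSG00000018924, GRCm38 chromosome 11, 70344152 to 70352031, reverse strand, 14 exons) encodes 12/15-lipoxygenase. Its FPKM was 2.25, 2.38, 0.474, 1.74 and 5.04 in E replicates 1 to 5 and 0.0529, 1.81, 1.18, 5.36 and 1.18 in NE replicates 1 to 5. The reads behind these values ran from 3 in non-exercise replicate 1 to 302 in non-exercise replicate 4. Each group held 1 tumor above 5 FPKM and 1 tumor below 0.5 FPKM. Over the 10 tumors the SD of log2(CPM + 1) was 1.11, larger than that of 98.0% of all tested genes and of 93.0% of the 1224 genes near its level. The log2 fold change was 0.23 (standard error 0.85, edgeR FDR 0.974), and single tumors moved it from -0.23, without exercise replicate 5, to 1.15, without non-exercise replicate 4, so that its sign depended on single tumors. With the replicate number as a block it was 0.61 (edgeR FDR 0.957).

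The other genes of the pathway, 59 entries of the table under 58 names, were read from the same fit. Of these, 33 passed the filter, 0 met the call rule by edgeR, DESeq2 or limma-trend, and 3 had an unadjusted edgeR p of 0.05 or less (9.09%, against 4.86% of all genes tested), all 3 with lower values in E. Their median log2 fold change was -0.065, with -0.014 over all genes tested. The 3 genes were Mgst3, a glutathione transferase of the same membrane protein family as FLAP, at -0.43 on the log2 scale (standard error 0.17, FDR 0.897), Pla2g5, a secreted phospholipase, with -1.22 (standard error 0.53, FDR 0.897), and Ptges3, a co-chaperone of HSP90 also named cytosolic prostaglandin E synthase, with -0.16 (standard error 0.067, FDR 0.897). Mgst3 and Pla2g5 were highest in non-exercise replicate 4, at 40.5 and 2.77 FPKM, the tumor with the highest skeletal muscle markers, and their log2 fold changes were -0.23 and -0.75 without it. In Ptges3, all 5 tumors of NE lay between 126 and 149 FPKM and those of E between 114 and 136 FPKM.

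By role, the highest of these genes were Pla2g7 among the phospholipases (43.0 ± 8.15 FPKM, SD, n = 10), which encodes the enzyme that degrades platelet-activating factor, Ptges3 among the synthases (131 ± 9.58 FPKM), Ptgir, the prostacyclin receptor, among the receptors (1.43 ± 0.455 FPKM), Ptgr1, a prostaglandin reductase, among the genes of breakdown and transport (17.1 ± 1.98 FPKM), Mgst3 in leukotriene synthesis (24.4 ± 6.11 FPKM) and Ltb4r1, the high-affinity leukotriene B4 receptor, among the leukotriene receptors (6.33 ± 1.99 FPKM). Ltb4r1 was thus above Cysltr1, a receptor of the cysteinyl leukotrienes (2.21 ± 0.784 FPKM). Ptgds, a prostaglandin D synthase, had at most 2 reads in a tumor. Hpgds, which encodes another prostaglandin D synthase, passed the filter with 53 to 176 reads (0.938 ± 0.370 FPKM). Cysltr1, Ptgds and Hpgds are named outside the rule given below. None of the 5 other lipoxygenase genes passed the filter. The highest of them, Alox12e, an epidermal lipoxygenase, had 57 reads in non-exercise replicate 5 and at most 8 in any other tumor. That tumor also had 98 reads of Pla2g2f, a phospholipase of the epidermis named after its values were seen, with at most 1 in any other tumor, and a summed level of 56.9 FPKM over the 8 keratinocyte markers, against 0.320 to 0.867 FPKM in the rest of NE and 0.339 to 1.09 FPKM in E.

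**Figure D3:**
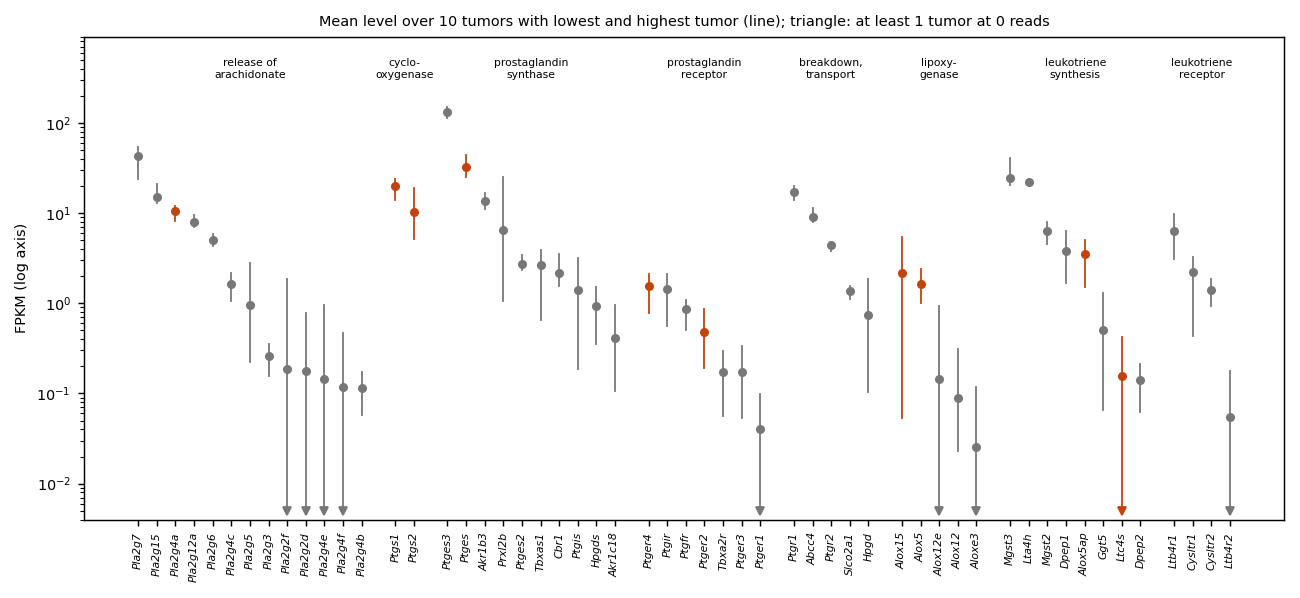
Mean FPKM over the 10 tumors (points, log axis) with the lowest and the highest tumor (lines) for the 10 genes of the set (orange) and the other pathway genes with at least 10 reads in a tumor (grey), 54 genes in all, grouped by role. Triangles mark genes at 0 reads in at least 1 tumor. Ptges3 is the highest at 131 FPKM, Ptges the highest of the orange genes at 32.8 FPKM and Ltc4s the lowest of them at 0.158 FPKM.

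The levels of the 9 tested genes were then set against the mean log2(CPM + 1) of 10 lists of cell type markers across the 10 tumors, 90 relations in all. None passed an adjusted p of 0.05 by both Pearson's r and Spearman's rho, while 11 did by Pearson's r alone. The relation with the highest r was that of Alox15 with the eosinophil list (r = 0.961, permutation p = 0.00020, adjusted 0.0099, rho = 0.818, permutation p = 0.0062, adjusted 0.111), and r was 0.915 without non-exercise replicates 1 and 4. Of the 6 eosinophil markers only Siglecf and Ccr3 passed the filter, Epx, which marks eosinophil granules, was at 0 in 9 of the 10 tumors, and the summed level was 0.702 to 5.69 FPKM in E and 0.148 to 5.80 FPKM in NE. Alox15 also followed the macrophage or monocyte list (r = 0.887, permutation p = 0.00022, adjusted 0.0099, rho = 0.697, permutation p = 0.031, adjusted 0.177), with r = 0.763 without exercise replicate 3 and non-exercise replicate 1. By Pearson's r alone Alox15 passed with the fibroblast (r = 0.840, rho = 0.721) and mast cell (r = 0.810, rho = 0.709) lists as well. For the fibroblast list r was 0.571 without exercise replicate 5 and non-exercise replicate 1. For the mast cell list it was 0.438 without non-exercise replicates 1 and 4.

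Alox5ap had its highest r with the mast cell list, all 8 markers of which passed the filter (r = 0.916, permutation p = 0.00075, adjusted 0.0225, rho = 0.842, permutation p = 0.0037, adjusted 0.0823), and r was 0.648 without non-exercise replicates 1 and 4. The summed mast cell level was 90.8 to 159 FPKM in E and 14.9 to 190 FPKM in NE. Alox5ap also passed by Pearson's r alone with the macrophage or monocyte (r = 0.893), fibroblast (r = 0.857, rho = 0.891) and eosinophil (r = 0.814) lists. For the macrophage or monocyte list r was 0.753 without exercise replicate 3 and non-exercise replicate 1. For the fibroblast list it was 0.784 without exercise replicate 5 and non-exercise replicate 1, and for the eosinophil list 0.464 without non-exercise replicates 1 and 4. Ptger2 followed the macrophage or monocyte list (r = 0.831, permutation p = 0.0020, adjusted 0.0376, rho = 0.879, permutation p = 0.0014, adjusted 0.0540), but r was 0.430 without exercise replicate 3 and non-exercise replicate 1, so that the linear relation rests on these tumors. Alox5 had its highest r with the endothelial cell list (r = 0.771, permutation p = 0.0037, adjusted 0.0376, rho = 0.733, permutation p = 0.020, adjusted 0.177), which was 0.524 without exercise replicate 5 and non-exercise replicate 4. With the neutrophil list it had r = 0.733 (permutation p = 0.0038, adjusted 0.0376, rho = 0.697, permutation p = 0.031, adjusted 0.177), and 0.462 without the same tumors. For Pla2g4a, Ptgs1, Ptgs2, Ptges and Ptger4 no relation passed by either measure. The tumors share their libraries and their scaling in all of these relations, the marker scores move together, and groups of 5 tumors are too few to repeat them within E or NE.

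**Figure D4:**
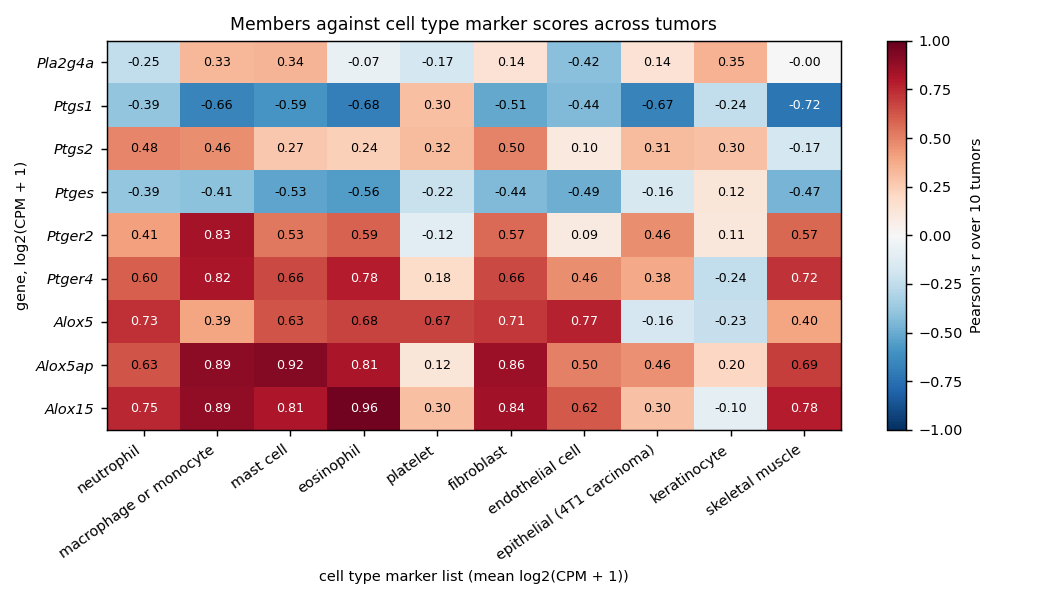
Pearson's r over the 10 tumors between log2(CPM + 1) of each of the 9 tested genes (rows) and the mean log2(CPM + 1) of each cell type marker list (columns), from blue at -1 to red at 1. Alox15 and Alox5ap are red against the macrophage, mast cell, eosinophil and fibroblast lists (r of 0.81 to 0.96), while Ptgs1 and Ptges are blue against these lists.

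Among themselves, no pair of the 9 genes passed an adjusted p of 0.05 by Pearson's r or Spearman's rho over 36 relations, a family added after the data were seen. The pair with the highest r was Alox5ap with Alox15 (r = 0.837, permutation p = 0.0029, adjusted 0.105, rho = 0.758, permutation p = 0.014, adjusted 0.197), and r was 0.472 without non-exercise replicates 1 and 4. The genes most alike each gene across the 10 tumors, by Pearson's r of log2(CPM + 1) among the genes tested and as a description only, were Radx, Galnt7 and Wrn for Pla2g4a (r of 0.942 to 0.968), Tbc1d24, Faf2 and Erlin2 for Ptgs1 (0.928 to 0.962), Stx4a, Sat1 and Pianp for Ptgs2 (0.892 to 0.904) and Eif4h, Wbp11 and Bahd1 for Ptges (0.938 to 0.947). For the receptors they were Cyba, Cndp2 and Slc11a1 for Ptger2 (0.941 to 0.946) and Gpr34, Taf9b and Lactb for Ptger4 (0.953 to 0.964). For the lipoxygenase branch they were Tnrc6c and Prrx2 for Alox5 (0.931 to 0.943), Mgst1, App and Ms4a8a for Alox5ap (0.963 to 0.970) and Dhrs3, Ltbp2 and Avpr1a for Alox15 (0.981 to 0.983).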

How the data were processed

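The authors prepared paired-end TruSeq libraries, aligned reads with Hisat2 and computed FPKM with Stringtie. The paper's methods name a rat assembly, although the table carries mouse identifiers. The authors deposited raw read counts and FPKM per gene and tumor. How the counts were made, and their strand, is not given in the sources used here. Each deposited FPKM equals the count per length and total (largest relative deviation 3.77e-14), so it holds no TMM factor. Gene positions are those of GENCODE M21 (GRCm38), matched by identifier.

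Counts were tested with edgeR 4.0.16 in R 4.3.3 (TMM, filterByExpr, glmQLFit, glmQLFTest, Benjamini-Hochberg over 13517 genes), and a gene was called when it differed 2-fold or more at an FDR no higher than 0.05. Standard errors are the log2 fold change divided by the root of the F statistic, and 95% intervals follow from them. CPM include the TMM factor. Correlations used 100000 permutations, two-sided, with Benjamini-Hochberg adjustment. DESeq2 1.42.0, limma-trend (limma 3.58.1) on log2(FPKM + 1), no TMM, no filter, the replicate block and leaving out tumors were the alternatives. On simulated data with 200 of 13517 genes changed by 1.2 (log2), edgeR recovered 145 at this FDR, with 7 false calls.

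The genes and lists were chosen with earlier results of these data known. Named are the 10 genes, other pathway genes with an unadjusted p of at most 0.05 or the highest level of their role, and the 3 genes most alike each, of which 1 for Alox5 is not reported here. The study had 5 mice in each group, which matches the 5 libraries, and the p-values measure the spread between these tumors. Of the other pathway genes, Prxl2b was matched by identifier from its older symbol Fam213b, and Dpep2 has 2 entries.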

Additional observations from a re-analysis of the deposited data

Results flagged for a closer look

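The tumors below lay far from the rest of their own group by Dixon's test, in which the distance to the next tumor exceeded 0.71 of the group's range. This was so in 5 of the 36 groups of 5 FPKM values examined, and about 1 in 20 groups, here 1.8, would be picked by chance. Exercise replicate 1 stood apart by its Ptges level of 44.5 FPKM, with 30.0 to 33.6 in the rest of E, and by its Ptgr1 level of 20.2 FPKM, with 15.95 to 16.3 in the rest of E. Exercise replicate 5 stood apart by its Ptger4 level of 2.13 FPKM, with 1.31 to 1.51 in the rest of E. Non-exercise replicate 4 stood apart by its Alox5 level of 2.19 FPKM, with 1.02 to 1.35 in the rest of NE. Non-exercise replicate 5 stood apart by its Alox12e level of 0.943 FPKM, with 0 to 0.123 in the rest of NE.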

How the results depend on the processing

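No gene met the call rule under DESeq2, without TMM, without the filter, by limma-trend, with any 1 tumor left out, or without E replicate 5, NE replicate 1 and NE replicate 4 together, an omission chosen after seeing the data. With a 2-fold difference and an unadjusted p of 0.05 or less, 56 genes passed, among them 1 other pathway gene (Pla2g5) and 0 of the 10 genes. The replicate block also called 0 genes. The study speaks of matched pairs after a random division of the mice, and the sources used here do not say which tumors were matched. The replicate numbers were not taken to pair them, since deviations of same-numbered tumors correlated from -0.325 to 0.316 and 1 of 5 exercise tumors correlated best with its own number.

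The log2 fold change of Ptger4 was 0.000125 by DESeq2, 0.038 without TMM, 0.0021 without the filter, 0.064 with the replicate block and 0.043 by limma-trend. The block gave 0.61 for Alox15, 0.23 without it. That of Pla2g7 was 0.021 without TMM, 0.023 with the block and 0.060 by limma-trend. Without the 3 tumors it was -0.091 for Pla2g4a, -0.42 for Ptgs2, -0.17 for Ptger4, -0.14 for Ltb4r1 and -0.20 for Pla2g7. With 1 tumor left out it ran from -0.050 to 0.070 for Pla2g4a, -0.027 to 0.15 for Ptgs1, -0.12 to 0.34 for Ptgs2, -0.023 to 0.18 for Ptges, -0.16 to 0.16 for Ptger4, 0.23 to 0.59 for Alox5, 0.026 to 0.44 for Alox5ap, -0.23 to 1.15 for Alox15, -0.18 to 0.13 for Ltb4r1 and -0.16 to 0.073 for Pla2g7. The relations with marker lists that passed by both measures numbered 1 without TMM and 0 to 4 with 1 tumor left out, with 4 without E replicate 1 and 1 without NE replicate 3. The causes were not tested. Depth limits Ltc4s, with at most 8 reads in a tumor, and Ptger2, with 23 to 92.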
